A study of Homo sapiens with 4 samples.

Results

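Transcript levels of LGR5 and of 9 WNT pathway feedback genes were measured by RNA-seq in TPC1, a cell line from a human papillary thyroid carcinoma with a CCDC6-RET fusion. The 10 genes were taken by symbol from a table of 20372 genes, and all 10 were found. LGR5 was chosen by its high counts in these same libraries, so its level is a description and is not tested. The other genes were named as companions of LGR5 in the WNT pathway. All cells had received BGJ398, which blocks the kinases of FGF receptors, for 6 h or for 24 h, with 2 libraries at each time. The dose is 100 micromolar per the labels, but the methods state that figure as nanomolar, and the unit was not settled. No library of untreated or vehicle-treated cells was analysed here, and each difference is thus between 24 h and 6 h of inhibitor. Whether replicates were separate cultures is not stated, and p-values then measure only the spread between libraries, which may be technical.

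In canonical WNT signaling a WNT ligand binds a frizzled receptor and an LRP co-receptor, which protects beta-catenin from the destruction complex and lets it act with TCF/LEF factors on target genes. Many of these targets feed back on the pathway. RNF43 and ZNRF3 are membrane E3 ubiquitin ligases that remove frizzled receptors from the cell surface, and LGR4, LGR5 and LGR6, when bound by R-spondins, withdraw these ligases. AXIN2 is a scaffold of the destruction complex, NKD1 binds dishevelled and DKK1 is secreted and blocks the LRP co-receptors. LGR5 is best known as a marker of stem cells in the intestine and the hair follicle.

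The libraries held 24958447 to 26325512 counts. Of the thyroid markers, PAX8 was between 957 and 1069 CPM (counts scaled to a common library total), while NKX2-1 and TSHR had 0 counts in all 4 libraries. Intestinal markers were near 0 (0 counts of CDX2, at most 1 count of OLFM4 or VIL1 in any library), except for CDH17 at 38.2 to 41.7 CPM. Of the leukocyte markers, CD3E had 0 counts in all 4 libraries and PTPRC had 2 to 6 counts, whereas CD68, a lysosomal protein gene of macrophages, was at 166 to 237 CPM. The epithelial genes EPCAM and CDH1 had at most 8 counts and 1 count in a library, whereas KRT8 and KRT18 were well counted. The summed level of the 3 mesenchymal genes was 11200 and 8884 CPM at 24 h, against 19550 and 12910 at 6 h. Most of this sum was FN1, at 8484 and 6707 CPM at 24 h, against 16278 and 10104 at 6 h. VIM was also lower in both 24 h libraries, whereas CDH2 overlapped between the times. In RNA from whole cultures fewer cells of a type and less RNA per cell cannot be told apart.

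LGR5 was abundant, and the other WNT pathway genes beside it fell into 3 tiers. LGR4 and TCF7 were also well expressed. AXIN2, LEF1 and ZNRF3 were low, and DKK1 was lower still. LGR6, RNF43 and NKD1 were close to absent. In these 4 libraries high LGR5 thus stood beside well expressed LGR4, a receptor, and TCF7, a transcription factor. The E3 ligases and inhibitors among the genes, ZNRF3, RNF43, AXIN2, NKD1 and DKK1, were all low or close to absent.

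LGR5 (ENSG00000139292, hg19 chromosome 12, 71833550 to 71980090) had 10857 and 10427 counts at 24 h, against 11789 and 12650 at 6 h. These are 430 and 419 CPM at 24 h, against 481 and 469 at 6 h, after scaling of library sizes by the trimmed mean of M values (TMM). Both 6 h libraries were above both 24 h libraries. To compare genes, CPM were divided by the length of the canonical transcript in kilobases. On that scale LGR5 ranged from 91.4 to 105 CPM per kb and ranked 757 of 15550 genes with a count, above 95.1% of them. TSPAN8, whose span overlaps that of LGR5, had 60 counts over the 4 libraries together.

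LGR4 (ENSG00000205213, chromosome 11, 27387508 to 27494322), a receptor for the same R-spondin ligands, was at 264 and 250 CPM at 24 h, against 288 and 251 at 6 h. The times overlapped. Per kilobase it was at 47.7 to 54.8 CPM, and the ratio of LGR5 to LGR4 within a library was between 1.87 and 2.14. LGR6 (ENSG00000133067, chromosome 1, 202163029 to 202288909), the third receptor of the family, had 0 and 1 count at 24 h, against 2 and 1 at 6 h. A count of 0 allows a level of up to 3 counts, or 0.111 to 0.122 CPM depending on the library, and all LGR6 values were under that limit. Intervals and limits of this kind cover counting error only.

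The E3 ligase pair was split. ZNRF3 (ENSG00000183579, chromosome 22, 29279580 to 29453475) was at 14.9 and 12.3 CPM at 24 h, against 16.4 and 17.2 at 6 h, without overlap between the times. RNF43 (ENSG00000108375, chromosome 17, 56429861 to 56494956) had 0 and 2 counts at 24 h, against 0 and 0 at 6 h, with an exact Poisson interval of 0.24 to 7.2 counts (95%) for the library with 2. SUPT4H1, which overlaps the end of RNF43, had 6132 counts over the libraries. No fold change is given for RNF43 because both times were under the limit.

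AXIN2 (ENSG00000168646, chromosome 17, 63524681 to 63557765), often used as a readout of beta-catenin activity, was at 12.9 and 11.9 CPM at 24 h, against 12.1 and 11.9 at 6 h. All 4 libraries lay close together. Per kilobase, LGR5 exceeded AXIN2 by a factor of 31.1 to 36.9 within a library. NKD1 (ENSG00000140807, chromosome 16, 50582241 to 50670647) had 3 and 2 counts at 24 h, against 1 and 2 at 6 h, none above 3 counts.

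DKK1 (ENSG00000107984, chromosome 10, 54074056 to 54077802) had 20 and 18 counts at 24 h, against 10 and 14 at 6 h, or 0.793 and 0.723 CPM against 0.408 and 0.520 CPM. Both 24 h libraries were above both 6 h libraries, but the exact Poisson intervals of the single counts overlapped, at 10.7 to 28.4 for the lower 24 h library and 7.7 to 23.5 for the higher 6 h library (95%).

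TCF7 (ENSG00000081059, chromosome 5, 133450402 to 133487556), which encodes the transcription factor TCF1, was at 90.2 and 78.9 CPM at 24 h, against 101 and 96.1 at 6 h. Both 24 h libraries were lower. Its span overlaps that of SKP1, with 18291 counts over the libraries against 9314 for TCF7, and since the strand setting of the counting is not given, reads of the shared stretch cannot be told apart. LEF1 (ENSG00000138795, chromosome 4, 108968701 to 109090112), another factor of the same family, was at 8.60 and 7.19 CPM at 24 h, against 8.89 and 7.50 at 6 h. In LEF1 replicate 1 was above replicate 2 at both times.

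Ordered by CPM per kilobase of transcript, LGR5 came first, then LGR4, TCF7, AXIN2, LEF1, ZNRF3 and DKK1, and then LGR6, NKD1 and RNF43. LGR5, LGR4 and TCF7 did not overlap in any pair of libraries. AXIN2 (2.79 to 3.02 CPM per kb) did not overlap with LEF1 (2.01 to 2.49), whereas LEF1 and ZNRF3 (1.79 to 2.51) overlapped. This part of the order depended on the length used. Per kilobase of coding sequence LEF1 was at 6.01 to 7.43, ZNRF3 at 4.38 to 6.13 and AXIN2 at 4.70 to 5.09 CPM, so that AXIN2 was no longer above LEF1. LGR5 stayed first on either scale, at 154 to 177 CPM per kb of coding sequence against 87.8 to 101 for LGR4 and 68.5 to 87.9 for TCF7. On the coding scale the ranges of LGR4 and TCF7 thus overlapped slightly. The 3 lowest genes cannot be ordered, with 4, 8 and 2 counts in all for LGR6, NKD1 and RNF43.

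**Figure D1:**
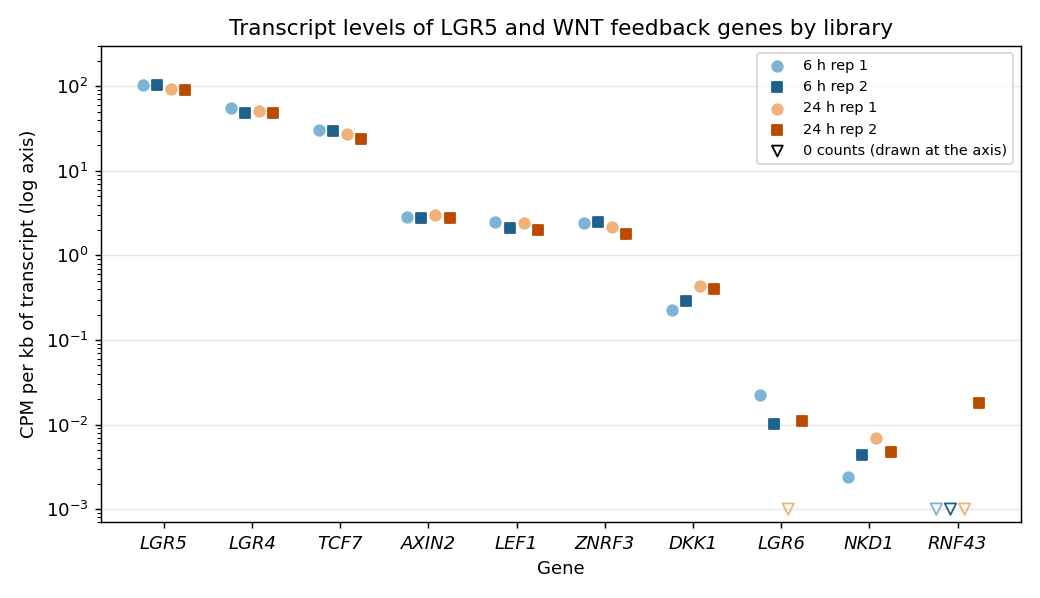
Level of each gene in CPM per kilobase of canonical transcript, on a log axis, with 1 point per library (blue, 6 h; orange, 24 h; circles, replicate 1; squares, replicate 2) and open triangles for 0 counts. LGR5 lies at 91.4 to 105, TCF7 at 24.0 to 30.8 and AXIN2 at 2.79 to 3.02, while LGR6, NKD1 and RNF43 lie under 0.03.

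Promoter sequences are shown for DKK1 and LGR4, as examples of a window with and a window without the TCF/LEF core motif. RefSeq windows of 250 bases before the transcription start (GRCh38.p14, a later build than that of the counts) were matched by symbol for 6 of the 10 genes, LGR6, LEF1, TCF7, DKK1, LGR4 and RNF43, with 10 windows because some have several starts. The core motif CTTTGA was searched on both strands and occurs in 11.2% of all 35116 windows of this length. Of the 10 windows 1 held it, that of DKK1 (chr10:52314031-52314280, plus strand), with a match starting 149 bases and another 95 bases before the start. The window of LGR4 (chr11:27472791-27473040, minus strand) held none. Both run 5′ to 3′ toward the start of the gene, and capitals mark the motif on either strand.
DKK1: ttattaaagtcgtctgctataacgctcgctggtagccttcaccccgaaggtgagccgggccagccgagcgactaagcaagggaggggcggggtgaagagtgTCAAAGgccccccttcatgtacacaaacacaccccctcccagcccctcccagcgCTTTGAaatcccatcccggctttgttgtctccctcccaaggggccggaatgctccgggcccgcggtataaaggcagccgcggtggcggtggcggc
LGR4: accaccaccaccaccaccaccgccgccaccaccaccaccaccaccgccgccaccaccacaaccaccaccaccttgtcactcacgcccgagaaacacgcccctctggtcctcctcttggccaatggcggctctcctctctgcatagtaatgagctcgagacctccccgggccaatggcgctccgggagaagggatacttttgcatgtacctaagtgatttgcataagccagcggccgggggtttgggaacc
A match describes these letters in this window and is not a bound site. DKK1 was at 0.226 to 0.439 CPM per kb. Genes without a match spanned a wide range. RNF43 was at 0 to 0.0178, LGR6 at 0 to 0.0223, LEF1 at 2.01 to 2.49, TCF7 at 24.0 to 30.8 and LGR4 at 47.7 to 54.8. A link between motif and level was not tested.

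Between 24 h and 6 h none of the differences passed the main test, which had no replicate block. The edgeR quasi-likelihood test was fitted across all 12549 genes that passed its filter on low counts, and p-values were adjusted over all of them by the Benjamini-Hochberg method. Of the 10 genes 7 passed the filter, and LGR6, RNF43 and NKD1 did not. The test called 0 of these 7 genes at an adjusted p under 0.05, where it called 0% of all tested genes, and 0 of the 7 had an unadjusted p under 0.05, which 24.4% of all tested genes had. DESeq2, the tool named by the study, gave an adjusted p to 3 of them (LGR5, LGR4 and TCF7) and called 0, beside 2.65% of genes called lower and 5.59% called higher at 24 h.

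LGR5 had a log2 fold change of -0.16 ± 0.11 (SE; 24 h over 6 h), with a 95% interval of -0.41 to 0.089 and an adjusted p of 0.359 by edgeR, or 0.325 by DESeq2. This is a fold of 0.894, with means of 425 ± 8.13 CPM (24 h) and 475 ± 7.99 CPM (6 h; SD, n = 2). For LGR4 the log2 value was -0.065 ± 0.11 (interval -0.33 to 0.20). Its direction turned to 0.036 without 6 h replicate 1.

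ZNRF3 had the lowest value of the 7, -0.31 ± 0.14, with an interval of -0.63 to 0.018 and an edgeR adjusted p of 0.220. TCF7 followed at -0.22 ± 0.11, with an interval of -0.47 to 0.022 and an edgeR adjusted p of 0.230. Both were smaller in size without 24 h replicate 2 (-0.17 for ZNRF3, -0.13 for TCF7), which had the lowest CPM of both genes, and larger without 24 h replicate 1 (-0.46 for ZNRF3, -0.33 for TCF7), with no call in either case. Across genes the fold change went with transcript length (Spearman -0.31) and with GC content (-0.34) over 12392 genes, which are not independent. With that trend removed, an alternative chosen after seeing the data, the values were -0.073 for ZNRF3 and -0.092 for TCF7, against -0.14 for LGR5.

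AXIN2 was at 0.044 ± 0.13, with an interval of -0.26 to 0.35, and turned to -0.022 without 24 h replicate 1. LEF1 was at -0.051 ± 0.17, with an interval of -0.45 to 0.34. The sign of LEF1 turned without 24 h replicate 2 (0.072) and without 6 h replicate 1 (0.074). DKK1 had the highest value, 0.70 ± 0.38 (a fold of 1.62), with an interval of -0.18 to 1.57 and an edgeR adjusted p of 0.277.

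The median log2 fold change of the 7 tested genes was -0.065, against 0.000185 over all tested genes, with 5 of the 7 below 0 where 50% of all tested genes were. Leaving out 24 h replicate 1 gave -0.19, and leaving out 6 h replicate 1 gave 0.036. The libraries of the 2 times did not overlap in 3 genes that were lower at 24 h (LGR5, ZNRF3 and TCF7), as in 31.5% of all tested genes. They did not overlap in 1 gene that was higher (DKK1), as in 31.3% of all tested genes. The summed level of the mesenchymal genes moved in the same direction as LGR5, with 3 of 3 genes at a log2 fold change below 0. CD68 did so as well, at -0.28. This direction was not particular to them, as 3 of 4 tested thyroid markers and 2 of 3 tested epithelial markers were also below 0. HHEX (thyroid, 0.19), KRT19 (epithelial, 0.097) and CDH17 (intestinal, 0.063) were above 0. The part of the marker genes in these values was not tested.

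**Figure D2:**
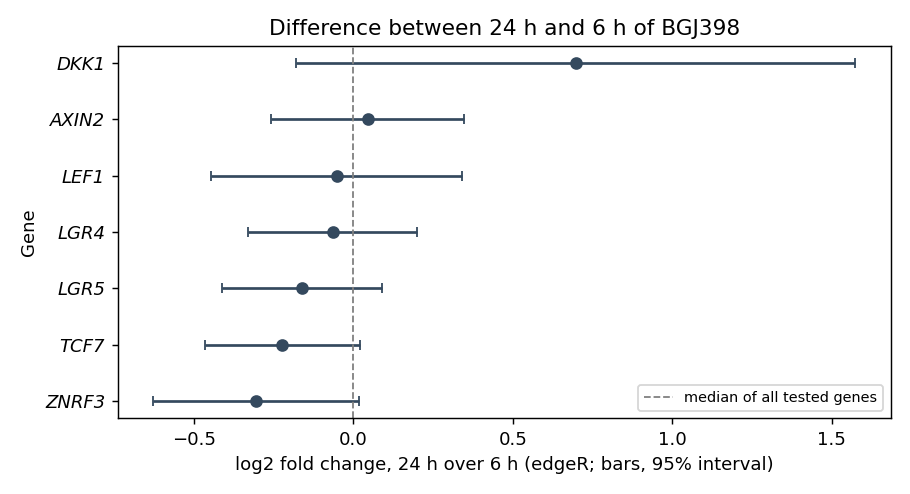
Log2 fold change of 24 h over 6 h for the 7 genes that passed the filter, from edgeR, with bars for the 95% interval and a dashed line at the median of all tested genes. Every interval includes 0, from ZNRF3 at -0.31 to DKK1 at 0.70.

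**Figure D3:**
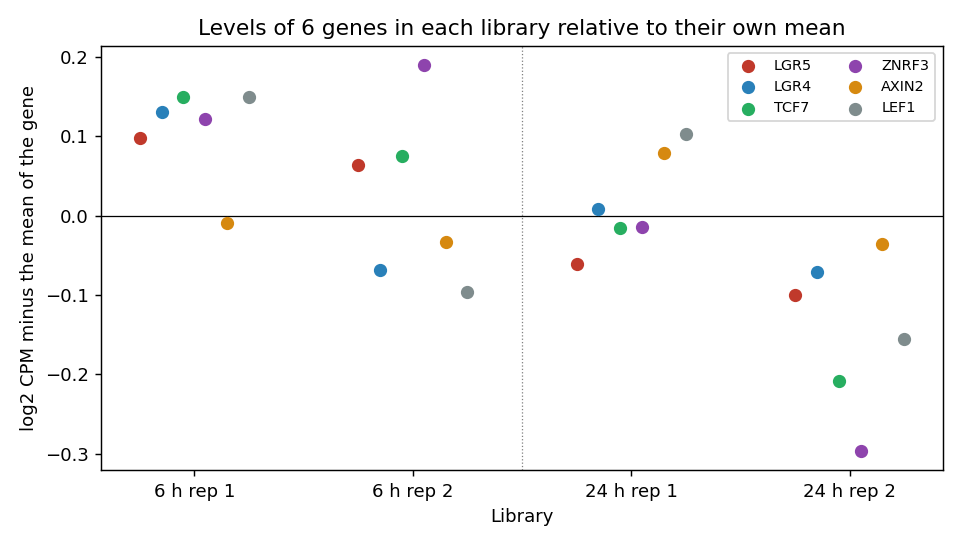
Log2 CPM of 6 genes in each library minus the mean of the gene over the 4 libraries. LGR5, TCF7 and ZNRF3 lie above 0 in both 6 h libraries and below 0 in both 24 h libraries, whereas LEF1 is above 0 in both libraries numbered 1.

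The genes whose profile over the 4 libraries was nearest to that of LGR5 were TPP2, ZXDC, MRPS5, TXNRD2 and MLLT6. Likeness was the root mean square difference of mean-centred log2 CPM, from 0.0027 for TPP2 to 0.0085 for MLLT6, among 10357 genes with a mean of at least 5 CPM. With 4 libraries this is a weak measure, since 898 of these genes lay within 0.05 of LGR5.

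The rest of the pathway was described by role from lists of 99 genes in all, of which 3 were above LGR5 per kilobase of transcript. These were CTNNB1, the gene of beta-catenin (177 CPM per kb), and the target genes CD44 (378) and CCND1 (114). This number depended on the length used. Per kilobase of coding sequence the same 3 were above LGR5 (165), and so were CSNK1A1 (371) and DKK3 (202). Of the 17 genes of WNT and R-spondin receptors other than LGR5, none was above it in the mean over 4 libraries. The nearest was FZD6, a frizzled receptor, which at 102 CPM per kb at 24 h was above LGR5 (92.6) and at 84.1 at 6 h below it (104).

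The ligands of the LGR receptors were close to absent. RSPO1 had 5 and 12 counts at 24 h, against 3 and 2 at 6 h, RSPO2 and RSPO3 had at most 1 count in a library and RSPO4 had 0. Of 21 genes of WNT ligands and their secretion 9 passed the filter. WNT7B was the highest at 43.0 CPM per kb, followed by WNT5B and then by WLS (26.2), which carries WNT proteins to the surface. Their median log2 fold change was -0.076, and 0 were called by either tool.

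Of 15 frizzled and co-receptor genes 12 passed the filter, with FZD6, RYK and FZD1 (14.7 CPM per kb) the highest. The median fold change was -0.28 (log2), with 9 of 12 below 0, where 50% of all tested genes were. FZD1 was called lower by DESeq2 (adjusted p = 0.0333) and not by edgeR (-0.45 ± 0.12, adjusted p = 0.173). Destruction complex and dishevelled genes all passed the filter, 14 of 14, with a median of -0.19 and 13 below 0, and 0 were called by either tool. Beside CTNNB1 the highest were the casein kinase genes CSNK1A1 (70.0 CPM per kb) and CSNK1D (53.4), and GSK3A, a kinase of the complex, had the smallest edgeR p, at -0.29 ± 0.11 (adjusted p = 0.178).

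Of the other TCF/LEF genes and their cofactors 11 of 11 passed the filter, with a median of -0.24. Of these 10 were below 0, beside 50% of all tested genes. PYGO2 (21.3 CPM per kb), TLE3 (15.1) and CTNNBIP1 (12.0) were the highest. BCL9L, a cofactor of beta-catenin, was called lower by DESeq2 (adjusted p = 0.0438) and not by edgeR (-0.46 ± 0.14, adjusted p = 0.173). Among 15 secreted and membrane inhibitors 8 had 0 counts in every library and 3 passed the filter, DKK3 at 83.9, KREMEN1 at 4.37 and DKK2 at 0.158 CPM per kb. KREMEN1, a receptor of DKK proteins, had the smallest edgeR p of the 3, at -0.46 ± 0.16 (adjusted p = 0.174).

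Other target genes of beta-catenin also spanned a wide range of levels. Of 19 in the list 10 did not pass the filter, and none of these had more than 13 counts in a library. CD44, CCND1 and BMP4 (14.7 CPM per kb) were the highest. All 9 that passed had a log2 fold change below 0, beside 50% of all tested genes, with a median of -0.27. CCND1, the gene of cyclin D1, was called lower by DESeq2 (adjusted p = 0.0464) and not by edgeR (-0.40 ± 0.14, adjusted p = 0.174). The 9 values were below 0 while AXIN2 was at 0.044, and replicate 2 was also below replicate 1 in these genes, by a median of -0.21 on the log2 scale. The 3 lists with the lowest medians moved with single libraries. Without 6 h replicate 1 the median was -0.12 for the targets, -0.19 for the receptors and -0.12 for the TCF/LEF list, and without 24 h replicate 2 it was -0.18, -0.17 and -0.13. Without 24 h replicate 1 it was -0.46, -0.36 and -0.37. With the length and GC trend removed it was -0.26, -0.075 and -0.11. The median of the destruction complex list was -0.12 without 24 h replicate 2 and -0.041 with the trend removed. The edgeR calls in these lists moved as well. Without 24 h replicate 1, each list with tested genes held some called genes, mostly lower at 24 h. Without 6 h replicate 2, the receptor, TCF/LEF, target and inhibitor lists did, all lower. Calls over all genes rose in both fits too. Each of these fits left 1 library at a time, so their numbers of calls are not compared. With the replicate number as a block, 8 receptor genes (7 lower), 6 destruction complex genes, 5 TCF/LEF genes, 3 targets, 2 inhibitors and 2 ligand genes (1 lower) were called, the others all lower. Beside these, 17.5% of all tested genes were called lower and 18.8% higher. FZD1 (edgeR adjusted p = 0.00053), BCL9L (0.00067), KREMEN1 (0.0014) and CCND1 (0.0015) were among those called with the block alone. Most of these calls were lost when the length and GC trend was removed as well. That fit called 3 receptor genes, 1 destruction complex gene, 1 TCF/LEF gene, 2 targets and 1 inhibitor, all lower. It also called 1 ligand gene, higher, and 2135 genes over all those tested.

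**Figure D4:**
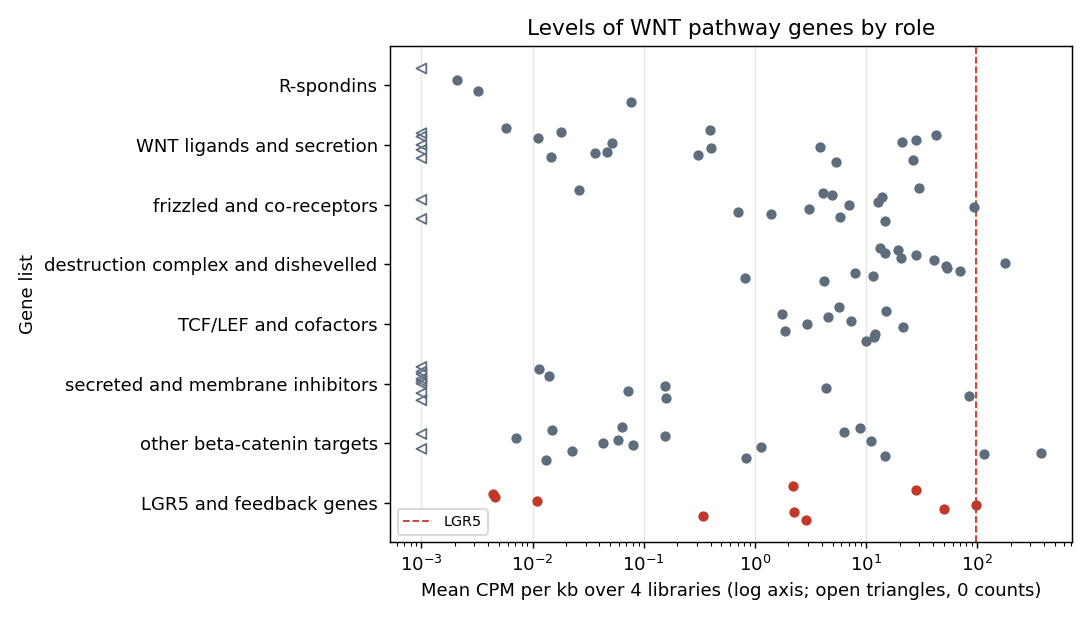
Mean level over the 4 libraries of each WNT pathway gene, in CPM per kilobase of transcript on a log axis, by role (red, LGR5 and the feedback genes; open triangles, 0 counts; dashed line, LGR5 at 98.1). Only CTNNB1, CD44 and CCND1 lie right of the line, and all 4 R-spondin genes lie under 0.1.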

How the data were processed

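RNA-seq was performed on 4 libraries of TPC1 cells. The values, as the authors deposited them, are unnormalized whole-number counts of reads for each gene, with hg19 positions. The submitters' processing notes name STAR 2.3, hg19 and DESeq2, whereas the methods name a later STAR release. Counter, annotation and strand setting: not given in the sources used here. Testing used edgeR 4.0.16 (R 4.3.3) and its quasi-likelihood F-test (TMM factors, filterByExpr, Benjamini-Hochberg adjustment over all tested genes, threshold 0.05), and the standard error is the fold change divided by the square root of F. DESeq2 1.42.0 was the alternative, with independent filtering at 0.05. Transcript lengths and GC are those of canonical transcripts of GENCODE 44, matched by Ensembl identifier for 19460 of 20372 genes and for all 10 genes described. Profiles used log2 of CPM plus 0.5. The steps were tested on simulated data. The genes and lists were chosen with earlier results of these data known. Named were the 10 genes and, from each other list, the 3 with the highest level per kilobase and the gene with the smallest edgeR p. The R-spondins, the 5 genes nearest to LGR5 in profile, marker genes and genes overlapping the 10 are named besides. Removal of the length and GC trend was added after seeing the data. The library totals of 24958447 to 26325512 counts leave genes with few counts, such as DKK1, with wide intervals.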

Additional observations from a re-analysis of the deposited data

How the results depend on the processing

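The count of 0 genes called by edgeR was also 0 with DESeq2 size factors, with either other filter and with the length and GC trend removed. DESeq2 called 610 genes. Leaving out each library, edgeR called 1 to 3126 genes, with the lone library of a time assumed to vary like the pair left; the highest count came on leaving out 24 h replicate 1, 887 on leaving out 6 h replicate 2, and 1 in either other case. None of the 7 genes was called in any of these fits. A replicate block raised the edgeR calls to 4565 genes, and 2 of the 7, TCF7 (-0.23, adjusted p = 0.0196) and ZNRF3 (-0.31, adjusted p = 0.0418), both lower at 24 h, as 17.5% of all tested genes were. Differences between replicates correlated at 0.49 between the times across genes, which are not independent, and no source ties equal numbers to a shared culture or day; the fit with the block thus stays an alternative. Adding trend removal to the replicate block left 2135 genes and 0 of the 7 called. The median over the 7 was -0.19 to 0.036 without each library. Signs turned for LGR4 (-0.16 to 0.036), AXIN2 (-0.022 to 0.10) and LEF1 (-0.19 to 0.074) without single libraries, and for LEF1 with the trend removed (0.051, or 0.050 with the block). The cause was not tested. LGR5 kept its sign and stayed uncalled in all alternatives, between -0.19 and -0.14. Without single libraries its level was 416.5 to 430.6 CPM at 24 h and 474 to 477.5 CPM at 6 h. With 2 libraries per time, such a shift follows from the pair itself and does not measure how stable the level is.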
